A study of Mus musculus with 34 samples.

Results

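The comparison described here is the response to interleukin 10 (IL-10) of bone-marrow-derived macrophages that lack the Il10 gene (IL-10-/-), read after 180 min. Its members were chosen by their array titles: 2 arrays of IL-10-/- cells given IL-10 with lipopolysaccharide (LPS) and 2 arrays of IL-10-/- cells given LPS alone, 4 of the 34 arrays in the series. The series used Affymetrix MG-U74Av2 arrays on resting cells and on wild-type, IL-10-/- and IL-6-/- macrophages stimulated for 45 or 180 min. Stimulation was with LPS alone, with LPS and IL-10 or, at 45 min only, with LPS and IL-6 at 2 ng/ml. Of the 34 arrays, 32 could be placed in 16 groups. The treated cells received IL-10 at 10 ng/ml and LPS at 100 ng/ml, and their controls LPS at 100 ng/ml without cytokine. Both groups carried the Il10 deletion and came from bone marrow cultured for 7 days in CSF-1. The titles call the 2 arrays of each group biological replicates, but the number of mice is not given in the labels. The labels' treatment field names LPS alone for the arrays whose titles also name IL-10, so the grouping rests on the titles. Values are the deposited probe-set signals on a linear scale, and each log2 change is the difference of the group means of log2 of the signal plus 50, with its standard error. That pseudocount understates folds of dim probe sets. A gene was called when its Benjamini-Hochberg adjusted p from limma was under 0.05, and "rose" and "fell" are used for called genes.

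IL-10 binds a receptor built from the IL-10RA and IL-10RB chains. The kinases JAK1 and TYK2 then phosphorylate STAT3, which enters the nucleus and drives target genes of IL-10, SOCS3 and BCL3 among those known. LPS acts through TLR4 to induce inflammatory cytokines and type I interferon, and it also makes normal macrophages secrete IL-10. Cells without Il10 lack that feedback, so IL-10 added to them can be set against LPS alone.

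The 4 arrays were alike in their overall signal, with a median between 182.6 and 194.8 and between 48.0% and 49.4% of probe sets at 200 or above. The 2 arrays of IL-10 plus LPS correlated at 0.9602 across 8224 probe sets on the log2 scale, and the 2 of LPS alone at 0.956. The 3'-to-5' signal ratio of Gapdh was 0.706 and 0.690 with IL-10 and 0.646 and 0.654 with LPS alone, so it was slightly higher with IL-10 and did not overlap. That of Actb was 1.62 and 1.32 with IL-10 and 1.96 and 1.44 with LPS alone, and it overlapped. The part of RNA integrity in the results was not tested. The macrophage label fitted its markers: the LPS co-receptor gene Cd14 gave 50025.6 and 44116.8 with IL-10 and 53338.7 and 46747.1 with LPS alone, and Lyz2, Csf1r, Cd68, Adgre1 and Itgam gave at least 2260.6 on each of the 4 arrays and did not pass the test. Of other cell types' markers, Ly6g, Ltf, Ngp, Cd3e and Cd8a gave at most 120.6 on each of the 4 arrays. Others gave more: the neutrophil gene Elane reached 396.0 and Camp 396.9, the lymphocyte gene Cd4 712.2 and Cd79a 389.7, and the stromal collagen genes Col1a1 1669.8 and Col1a2 2693.2. The dendritic cell gene Flt3 reached 875.0, and the stromal genes Sparc and Dcn 838.2 and 448.6. None of these brighter markers passed the test.

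The Il10 probe set was read first, as the check on the genotype. It gave 4633.7 and 4698.2 in IL-10-/- cells with IL-10 and LPS, against 1532.2 and 1511.8 with LPS alone, and so rose 3.0-fold (log2 change 1.58 ± 0.26, adjusted p = 0.00024). Wild-type cells gave 4409.0 and 4512.1 with IL-10 and 3264.7 and 2700.7 with LPS alone. The probe set therefore gave signal in cells said to lack the gene, with IL-10 near the level of wild type. Where it lies relative to the deleted part is not given in the sources used here, so its signal checks nothing about the deletion.

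Added IL-10 changed 243 of 6070 genes in IL-10-/- macrophages, 4.0% of those tested, with 153 higher (2.52%) and 90 lower (1.48%). The largest rises were in the adhesion receptor P-selectin (Selp), the heme-responsive repressor Bach1 and the IL-4 receptor alpha chain (Il4ra). The largest falls were in the growth factor GM-CSF (Csf2), the membrane scaffold caveolin 1 (Cav1) and the chemokine Ccl17, followed by interferon-induced genes. Among probe sets, 291 of 8224 were called (3.54%; 187 higher, 104 lower), and 839 had an unadjusted p under 0.05. These are values of whole cultures, in which fewer cells of a type and less RNA per cell cannot be told apart. The arrays of the groups did not overlap for any of the 153 higher or 90 lower genes. Over all 6070 genes, 20.7% were higher without overlap and 24.2% lower. The log2 change was 3 or more for 14 of the higher genes and -3 or less for 4 of the lower ones. Its median was 1.57 among the higher genes and -1.39 among the lower ones, while that of all genes tested was -0.026. The count of probe sets fell to 176 when the second IL-10 plus LPS array was left out, and to 185 to 187 without any other one of the 4 arrays.

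**Figure D1:**
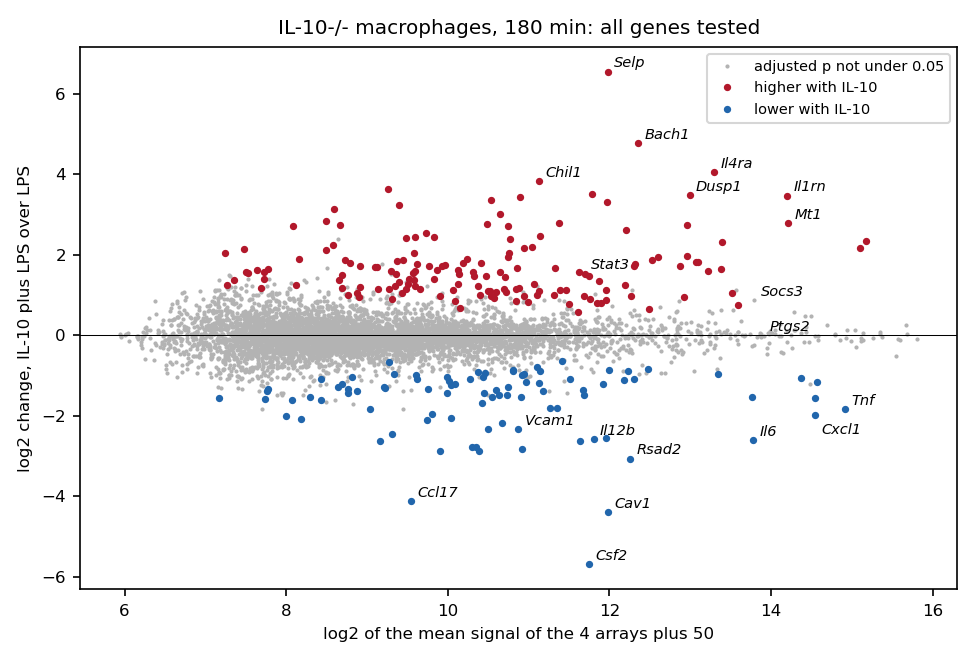
Log2 change of each of the 6070 genes, IL-10 plus LPS over LPS alone in IL-10-/- macrophages at 180 min, against log2 of the mean signal of the 4 arrays plus 50. Red points are the 153 genes that rose and blue points the 90 that fell, and Selp (6.55) and Csf2 (-5.70) lie farthest from 0.

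Selp, whose protein tethers leukocytes and is best known on platelets and endothelium, gave 7232.8 and 8679.3 with IL-10, against 39.1 and 31.2 with LPS alone. It was near the array's floor without the cytokine and bright with it (6.55 ± 0.32, adjusted p = 6.38e-13). Bach1 gave 10452.9 and 9706.1 with IL-10 and 306.9 and 334.4 with LPS alone, a 27.3-fold rise (4.77 ± 0.28), and Il4ra gave 19040.6 and 18894.8 against 1005.7 and 1201.2, a 16.5-fold rise (4.05 ± 0.18). In each of these the arrays of a group lay close together and far from the other group. Second probe sets of Bach1 (1.82, adjusted p = 0.401) and Il4ra (0.13, adjusted p = 0.999) did not pass, although both had the same sign. Chil1, a secreted chitinase-like protein gene, gave 4429.3 and 3808.0 with IL-10 against 305.8 and 191.0, a 14.2-fold rise. The docking protein gene Gab1, which links receptors to PI3-kinase, gave 1070.2 and 1100.8 against 46.7 and 36.4, and the endolysosomal channel gene Mcoln2 6451.2 and 6461.6 against 486.0 and 560.9. Dusp1, a phosphatase that switches off p38 and JNK, gave 15550.0 and 14290.0 against 1403.6 and 1170.4 (3.49 ± 0.26). Il1rn, the gene of the IL-1 receptor antagonist, gave 37013.3 and 32044.4, against 2940.5 and 3188.8, an 11.1-fold rise (3.47 ± 0.17). The others were the copper-carrying ferroxidase gene Cp (3.44), arginase 2 (Arg2, 3.35), the endothelial protein C receptor gene Procr (3.31) and the AP-1 family gene Batf (3.23). Second probe sets of Gab1 (1.23, adjusted p = 0.111) and Arg2 (0.83, adjusted p = 0.886) did not pass.

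Csf2 gave 82.9 and 76.8 with IL-10, against 6968.7 and 6418.9 with LPS alone, and fell by 5.70 on the log2 scale (± 0.42, adjusted p = 1.03e-09). Cav1 gave 323.6 and 311.6 with IL-10 and 8375.0 and 7000.1 with LPS alone (-4.39 ± 0.25). A second Cav1 probe set read -0.62 (adjusted p = 0.886). Ccl17, which attracts CCR4-bearing T cells, gave 46.9 and 16.8 with IL-10 against 1306.1 and 1422.7 (-4.13 ± 0.40), and the other CCR4 ligand gene, Ccl22, 134.5 and 233.1 against 1482.1 and 1778.8 (-2.87 ± 0.38). With IL-10, both Csf2 and Ccl17 were thus among the dim probe sets. Cited2, a co-regulator of CBP and p300, gave 889.8 and 788.1 against 5494.8 and 5391.6 (-2.63), and St3gal5, which makes the ganglioside GM3, gave 98.4 and 120.1 against 847.3 and 1020.3 (-2.62). The rest of the 12 largest falls were 5 interferon-induced genes and Il6.

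**Figure D2:**
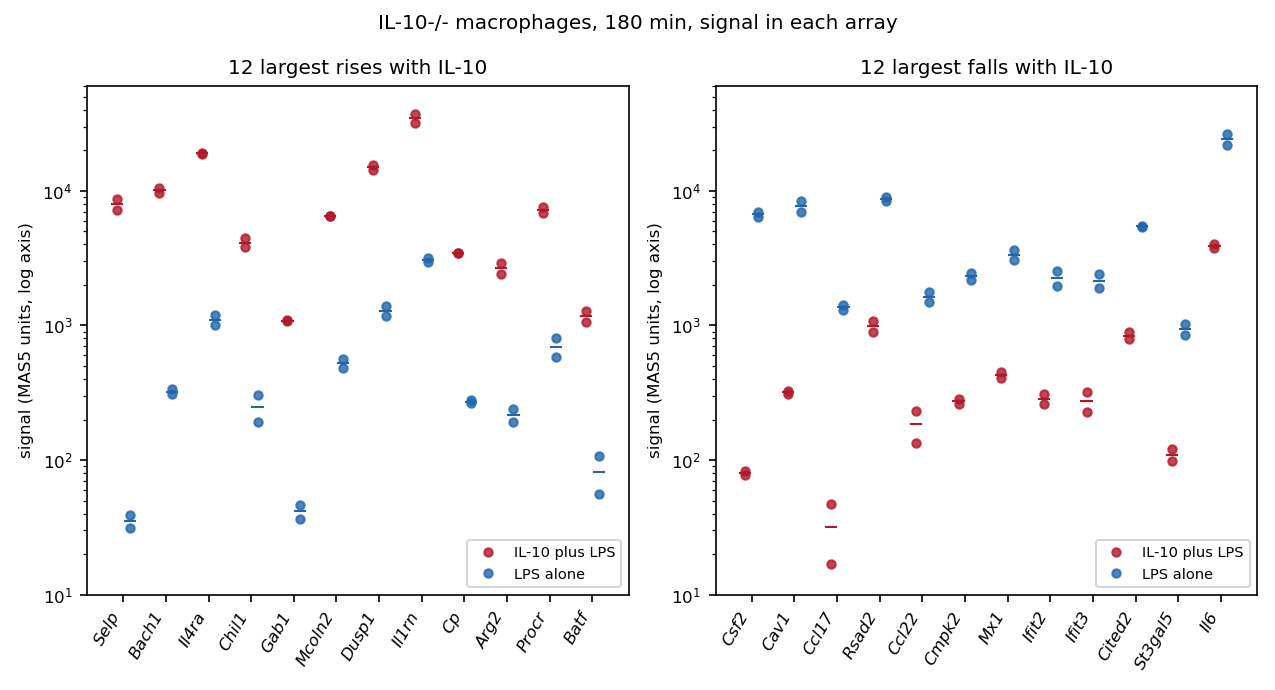
Signal (log axis) of the 12 largest rises and the 12 largest falls in each array of IL-10-/- macrophages at 180 min, red for IL-10 plus LPS and blue for LPS alone, with a bar at the group mean. The 24 genes were chosen among called genes whose groups did not overlap, and Il1rn gave at least 2940.5 in both groups.

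Upstream sequence is shown for the 3 largest rises and the 3 largest falls, to set the genes that moved most beside the letters that STAT, interferon-regulated, NF-kappaB and AP-1 sites are known for. The sequences are the last 150 bases before the annotated start, 5' to 3' on the gene's own strand, from RefSeq on build GRCm38.p6. They lie at chr1:164115114-164115263 (plus strand) for Selp, chr16:87698804-87698953 (plus strand) for Bach1, chr7:125552121-125552270 (plus strand) for Il4ra, chr11:54249900-54250049 (minus strand) for Csf2, chr6:17306185-17306334 (plus strand) for Cav1 and chr8:94810303-94810452 (plus strand) for Ccl17. Capitals mark matches on either strand to TTCNNNGAA (STAT), GAAA then 2 bases of any kind then GAAA (interferon-stimulated response element), GGG then 5 bases of any kind then CC (NF-kappaB) or TGANTCA (AP-1), and matches that overlap or touch run together.
Selp promoter: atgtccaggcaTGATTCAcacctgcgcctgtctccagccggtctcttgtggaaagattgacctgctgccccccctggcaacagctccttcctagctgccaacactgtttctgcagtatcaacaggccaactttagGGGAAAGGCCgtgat
Bach1 promoter: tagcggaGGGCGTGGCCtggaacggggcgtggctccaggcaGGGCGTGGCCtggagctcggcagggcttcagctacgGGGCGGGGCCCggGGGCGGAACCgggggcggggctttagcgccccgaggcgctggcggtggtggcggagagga
Il4ra promoter: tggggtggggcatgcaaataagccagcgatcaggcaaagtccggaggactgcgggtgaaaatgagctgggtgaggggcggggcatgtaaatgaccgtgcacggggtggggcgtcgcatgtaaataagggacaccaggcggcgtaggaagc
Csf2 promoter: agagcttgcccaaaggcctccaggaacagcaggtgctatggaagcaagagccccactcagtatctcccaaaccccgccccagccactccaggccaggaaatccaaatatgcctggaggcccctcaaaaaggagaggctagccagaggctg
Cav1 promoter: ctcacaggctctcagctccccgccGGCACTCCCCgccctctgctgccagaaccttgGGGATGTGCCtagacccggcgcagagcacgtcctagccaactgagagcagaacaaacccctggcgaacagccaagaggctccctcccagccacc
Ccl17 promoter: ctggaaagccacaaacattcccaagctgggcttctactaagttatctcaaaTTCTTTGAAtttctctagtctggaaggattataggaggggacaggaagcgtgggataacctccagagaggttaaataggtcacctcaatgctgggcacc
Over the 250 bases before the start, Ccl17 held 1 STAT match and Selp 1 AP-1 match. Bach1 held 5 matches to the NF-kappaB letters, Cav1 2 and Selp 1, while Il4ra and Csf2 held none of the 4 motifs. Only the first RefSeq promoter entry of a gene was searched here and in the shares below, and Cav1 had 2 entries. TTCNNNGAA stood in 14 of 132 higher genes (10.6%) and 8 of 77 lower genes (10.4%) with a RefSeq entry, against 5.98% of 4887 tested genes and 7.18% of all 27025 promoters in the table. The NF-kappaB letters stood in 68.9% of the higher, 64.9% of the lower and 61.5% of the tested genes (45.4% of all promoters). TGANTCA stood in 9.85%, 11.7% and 5.30% (6.87% of all promoters). Such matches are letters in this window and say nothing about binding.

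Of the IL-10 receptor, JAK, STAT and SOCS genes, 6 of 22 rose, 1 fell and 15 did not pass (median log2 change 0.25). The counts of this and the following lists stand against 2.52% higher and 1.48% lower over all genes tested. Stat3, the factor that carries the IL-10 signal, gave 4902.4 and 4845.1 with IL-10 and 1683.4 and 1634.2 with LPS alone, a 2.88-fold rise (1.53 ± 0.17, adjusted p = 1.94e-06). A second Stat3 probe set rose by 1.98. The receptor genes were Il10ra, with 753.8 and 805.9 against 1052.8 and 957.6 (-0.35, adjusted p = 0.80), and Il10rb, with 4756.1 and 4275.6 against 4992.8 and 4561.3 (-0.08, adjusted p = 0.999). Ptpn1, a phosphatase that acts on JAK kinases, rose 6.62-fold, and Cish, a SOCS family gene, fell to 782.4 and 846.0 with IL-10 against 1929.6 and 2423.9 (-1.36, adjusted p = 0.000542). The kinase genes Jak1 (0.98) and Jak2 (0.81), the phosphatase gene Ptpn6 (0.89) and the IL-6 receptor signalling chain Il6st (1.15) also rose and were named after their values were seen. Socs3, the best known of these feedback genes, was bright in both groups, at 17805.8 and 18651.1 with IL-10 and 8703.3 and 11448.4 with LPS alone. Its arrays did not overlap, but its change of 0.87 ± 0.27 missed the threshold (adjusted p = 0.0909). It passed with a pseudocount of 200 (0.00431), without the resting arrays in the fit (0.000631), as the mean of its probe sets (0.00436), in a fit of the 4 arrays alone (0.0112) and with a replicate block (0.000193).

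Genes linked to STAT3 or to IL-10 itself in macrophages made up the list with the highest median (1.53): 15 of 25 rose, none fell and 10 did not pass. The list was chosen with earlier results of these data known, so its count is no independent evidence of its direction. Besides Selp, Il4ra and Il1rn, it held Bcl3, a nuclear IkappaB protein gene, with 3035.4 and 3322.6 against 659.4 and 678.0 (4.49-fold, 2.17 ± 0.31, adjusted p = 4.89e-05). Mcl1, an anti-apoptotic BCL2 family gene, rose 1.76-fold (0.81, adjusted p = 0.00927), but not without LPS replicate 2 (0.189), IL-10 plus LPS replicate 1 (0.130) or replicate 2 (0.0516). Its other risers included the repressor gene Bcl6 (3.02), the C/EBP factor genes Cebpd (1.94) and Cebpb (1.72), Zfp36 (1.82), whose protein destabilises cytokine mRNA, and Nfil3 (1.17), all named after their values were seen.

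Of 14 inflammatory cytokine genes tested, 5 fell (Csf2, Il6, Il12b, Tnf and Il1a), Il10 rose and 8 did not pass, with a median of -0.70. Over all genes 1.48% fell and 2.52% rose. Tnf gave 13627.2 and 13243.9 with IL-10 and 50046.2 and 46346.5 with LPS alone, a 3.58-fold fall (-1.84 ± 0.39, adjusted p = 0.00446). Il6 gave 4019.1 and 3761.8 with IL-10, against 26567.0 and 21767.0 with LPS alone, a 6.12-fold fall (-2.61 ± 0.53, adjusted p = 0.00299). The groups did not overlap for either gene. Each narrowly lost its call in fits without 1 array, Tnf without LPS replicate 1 (adjusted p = 0.0539) or IL-10 plus LPS replicate 2 (0.0517) and Il6 without LPS replicate 1 (0.0511), and Il6 also with a pseudocount of 10 (0.0576). Il12b, which encodes the p40 chain of IL-12 and IL-23, gave 880.9 and 1084.5 against 6056.0 and 6116.2 (-2.58 ± 0.46, adjusted p = 0.000679). Il1a gave 11333.7 and 12709.3 against 37582.4 and 33924.5 (-1.57 ± 0.28). Il1b, by contrast, gave 41462.9 and 37081.2 against 60689.4 and 51313.6 (-0.51 ± 0.25, adjusted p = 0.502), and Csf3, the G-CSF gene, 1082.3 and 1404.1 against 860.2 and 1048.3 (0.36, adjusted p = 0.883). The call for Il1b came only with a replicate block (0.00203) and without the resting arrays (0.0338), among the settings tried.

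Among chemokines, the neutrophil attractant Cxcl1 gave 10710.8 and 8575.3 with IL-10, against 37534.4 and 38867.4 with LPS alone (-1.99 ± 0.31, adjusted p = 0.000126), and its second probe set also fell (-2.09). The related Cxcl2 read -1.16 ± 0.33 (adjusted p = 0.0477), a call lost without any 1 of the 4 arrays (0.159 to 0.33) and with a pseudocount of 10 (0.304), no filter (0.0767), quantile normalization (0.142) or no trend (0.0953). Of 16 monocyte and T-cell chemokines 3 fell, none rose and 13 did not pass, with a median of -0.11. The monocyte attractant Ccl2 gave 14592.4 and 12659.0 against 30283.7 and 26997.3 (-1.07 ± 0.21, adjusted p = 0.00217), with 0.0587 when IL-10 plus LPS replicate 2 was left out. The interferon-inducible Cxcl10 gave 6943.0 and 4761.0 against 12947.3 and 8844.3 (-0.89 ± 0.39, adjusted p = 0.365), and passed only with a replicate block (6.26e-05) among the settings tried. Of 12 chemokine receptor family genes 1 was called (8.33%, against 4.0% of all genes), Ccrl2, with -1.21 (adjusted p = 0.0154). It was lost without any 1 of the 4 arrays (log2 change -1.26 to -1.16).

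Interferon response genes held the most called members that were lower: 13 of 37 fell, 1 rose and 23 did not pass, with a median of -0.86. Rsad2, which encodes the antiviral enzyme viperin, gave 898.3 and 1085.8 with IL-10, against 8954.2 and 8399.3 with LPS alone (-3.07 ± 0.38, adjusted p = 6.09e-06). Its genomic neighbour Cmpk2, a mitochondrial nucleotide kinase gene, gave 284.0 and 262.1 against 2434.7 and 2188.9 (-2.87 ± 0.51). The dynamin-like GTPase gene Mx1 gave 409.7 and 449.8 against 3619.0 and 3076.6 (-2.82 ± 0.52). Ifit2 (-2.77 ± 0.72, adjusted p = 0.0262) and Ifit3 (-2.77 ± 0.64, adjusted p = 0.0102), both of the IFIT family, fell too. Their standard errors, which pool all 32 grouped arrays, were the widest of the 12 largest falls. In the resting arrays the signal ran from 225.5 to 3203.9 for Ifit2 and from 213.2 to 3449.1 for Ifit3. On the 4 arrays compared, Ifit2 gave 308.5 and 258.9 against 2519.2 and 1945.8, and Ifit3 319.7 and 227.5 against 2389.7 and 1893.3. Each lost its call without any 1 of these 4 arrays (log2 change -2.95 to -2.58 for Ifit2, -2.97 to -2.56 for Ifit3). Irf1, a transcription factor of interferon responses, gave 1533.5 and 1825.7 against 4875.6 and 4795.3 (-1.5 ± 0.20, adjusted p = 2.21e-05). The single riser was Irf8, a factor of macrophage and dendritic cell development, with 878.6 and 1072.5 against 409.3 and 345.1 (1.26 ± 0.20, adjusted p = 0.000149). The upstream sequences of Rsad2, at chr12:26456453-26456602 (minus strand), and Ifit3, at chr19:34583379-34583528 (plus strand), are shown, chosen after their values were seen, since both hold the response element's letters. Capitals are as above, and the first capitals of Ifit3 are the end of a match that starts upstream of the bases shown.
Rsad2 promoter: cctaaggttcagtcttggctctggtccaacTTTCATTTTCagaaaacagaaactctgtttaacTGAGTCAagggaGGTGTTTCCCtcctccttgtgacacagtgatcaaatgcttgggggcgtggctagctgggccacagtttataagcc
Ifit3 promoter: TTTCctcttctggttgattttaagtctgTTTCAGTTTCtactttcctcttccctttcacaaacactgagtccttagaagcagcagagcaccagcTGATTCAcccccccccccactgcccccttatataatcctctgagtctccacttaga
Those letters stood in 9 of 77 lower genes (11.7%) and 1 of 132 higher ones (0.758%), against 2.74% of the 4887 tested genes and 3.04% of all promoters. The 9 lower genes were Rsad2, Ifit1, Ifit3, the immunity-related GTPase genes Igtp, Irgm1 and Irgm2, Ncf1, Rpp14 and Sgk1, and the higher one was the acute-phase gene Saa3. Ifit2 and Irf1, which also fell, held no such match in the 250 bases searched, and Cmpk2 and Mx1 were not among the 9.

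Of 28 NF-kappaB components and feedback genes, 26 did not pass, and the 2 that did (7.14%, against 4.0% of all genes), Bcl3 and Map3k8, rose. Map3k8, the kinase that links TLR4 to ERK, gave 4517.3 and 4691.4 with IL-10 and 616.6 and 642.5 with LPS alone (6.85-fold, 2.78 ± 0.29), and its second probe set read -0.52 (adjusted p = 0.951). Immediate early and AP-1 genes split, with 7 of 39 up, 2 down and 30 not passing (23.1% called, median 0.18). Fos gave 623.4 and 756.6 against 191.0 and 154.2 (3.32-fold), and Ier2 3820.9 and 3833.3 against 1668.4 and 1812.0 (2.17-fold). The lower 2 were Egr2 (-1.55) and the kinase gene Sgk1 (-0.67), named after their values were seen. The prostaglandin synthase gene Ptgs2 gave 17235.8 and 13345.8 with IL-10 and 17249.6 and 13455.0 with LPS alone, a change of -0.01 ± 0.21 (adjusted p = 0.999). In the same pathway 1 of 12 genes rose, the phospholipase Pla2g4a (1.72 ± 0.30, adjusted p = 0.000644), which frees arachidonic acid. The 20 tested heat shock and chaperone genes held 2 that fell, the near-identical copies Hspa1b (384.3 and 460.0 against 2752.5 and 1979.4, -2.34 ± 0.29) and Hspa1a (-1.95 ± 0.25), whose probe sets may share target RNA.

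Some genes for metal, heme and acute-phase proteins rose, among them Bach1 and Cp. In the list of metallothionein, heme, iron and redox genes 5 of 24 rose, none fell and 19 did not pass. The metal-binding metallothionein 1 gene (Mt1) gave 34231.9 and 31815.9 with IL-10, against 4271.2 and 5237.3 with LPS alone (6.91-fold, 2.79 ± 0.25, adjusted p = 3.9e-08), and Mt2 rose by 2.16. Hmox1, the heme oxygenase gene that BACH1 represses, read 0.39 (adjusted p = 0.883). Of 15 acute-phase, S100 and chitinase-like genes 6 rose and 9 did not pass, among them Lcn2, a siderophore-binding protein gene, with 2869.6 and 2985.8 against 348.5 and 465.3 (6.57-fold, adjusted p = 5.33e-05). A second Lcn2 probe set read -0.13 (adjusted p = 0.999). S100a8, one chain of calprotectin, gave 1500.3 and 1482.3 against 244.6 and 227.5 (5.39-fold), while S100a9, the other chain, read -0.34 (adjusted p = 0.999). Lcn2 and S100a8 are also neutrophil markers, and they were the 2 of 9 tested neutrophil markers that rose. The summed signal of the neutrophil list, Lcn2 and S100a8 included, was 6742 and 6424 with IL-10 and 3135 and 3081 with LPS alone. Mpo gave 49.0 and 70.3 against 52.6 and 31.8, and Ly6g, Ltf and Ngp were below the filter on low signal. Elane gave 179.4 and 234.1 with IL-10 and 323.7 and 396.0 with LPS alone, lower with IL-10 without overlap (-0.68, adjusted p = 0.593), and Camp 396.9 and 242.6 against 372.8 and 338.6, which overlapped. Of the erythroid and mast cell markers 1 of 6 rose, the carbonic anhydrase gene Car2 (4.13-fold), with 1124.1 and 1244.6 against 269.5 and 229.2. The summed signal of that list, Car2 included, was 3124 and 3037 against 2039 and 1862. The part of other cell types in these rises was not tested.

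In the coagulation and vascular list 3 of 18 rose and 3 fell. Procr, which helps activate protein C, gave 7586.8 and 6849.2 with IL-10 and 800.3 and 581.8 with LPS alone (9.90-fold, adjusted p = 5.51e-11). Tissue factor (F3), which starts coagulation, read -1.43 (adjusted p = 0.0262) and was named after its value was seen. The urokinase receptor gene Plaur read -0.64 (adjusted p = 0.0458), lost without any 1 of the 4 arrays (log2 change -0.72 to -0.56). The Plaur call was also lost with a pseudocount of 10 (adjusted p = 0.0534), no filter (0.0506) or no trend (0.067). The endothelial-type adhesion gene Vcam1 gave 546.8 and 584.3 against 3319.6 and 2846.8 (-2.34 ± 0.35, adjusted p = 8.25e-05), with 2 further probe sets at -2.08 and -3.04. It was the 1 called gene of 15 in the costimulation and maturation list. Arg2, which turns arginine into ornithine and urea, gave 2893.9 and 2416.2 against 240.5 and 191.7 (10.2-fold, adjusted p = 1.21e-05). Nos2, which makes nitric oxide from the same substrate, gave 799.1 and 1146.8 against 293.3 and 427.6. Its arrays did not overlap, and its change of 1.32 ± 0.39 missed the threshold (adjusted p = 0.0654) but passed in 6 of 14 other settings. The polyamine acetyltransferase gene Sat1 (-1.08, adjusted p = 0.0143) fell, except without LPS replicate 1 (0.123), LPS replicate 2 (0.094) or IL-10 plus LPS replicate 2 (0.23).

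Smaller changes stood in metabolic and uptake genes. Glycolysis and hypoxia, a list of 24 tested genes with a median of 0.38, held 3 that rose. Pfkfb3, which makes the activator of glycolysis fructose 2,6-bisphosphate, gave 950.7 and 1149.8 with IL-10 and 262.9 and 232.2 with LPS alone (3.69-fold, 1.88 ± 0.27), and its second probe set rose by 2.45. Triosephosphate isomerase (Tpi1, 0.64, adjusted p = 0.0186) and hexokinase 2 (Hk2, 0.87, adjusted p = 0.0458) were weaker. Hk2 was lost without any 1 array (log2 change 0.69 to 1.05). It was also lost with a pseudocount of 10 (adjusted p = 0.0578), no filter (0.0603), quantile normalization (0.0972) or no trend (0.0832). Tpi1 was lost without LPS replicate 1 (log2 change 0.52) or either IL-10 plus LPS array (0.68 and 0.61). Quantile normalization (adjusted p = 0.0611) and no trend (0.0575) also lost Tpi1. The 2 risers of 24 Fc, complement and scavenger genes were the inhibitory Fc receptor gene Fcgr2b (1.04, adjusted p = 0.0156) and the mannose receptor gene Mrc1 (1.46, adjusted p = 0.036). Both were lost without any 1 array (log2 change 0.99 to 1.09 and 1.15 to 1.76). Mrc1 was also lost with no filter (adjusted p = 0.054), quantile normalization (0.08) or no trend (0.073). Casp4 (1.01, adjusted p = 0.046), an inflammatory caspase gene in the survival list, was likewise lost without any 1 array (log2 change 0.93 to 1.09). The call for Casp4 was also lost with a pseudocount of 10 (adjusted p = 0.104), no filter (0.064), quantile normalization (0.14) or no trend (0.0832). In the sterol list the cholesterol exporter gene Abca1 rose (0.91, adjusted p = 0.0114), though not without LPS replicate 2 (0.311) or IL-10 plus LPS replicate 1 (0.203), nor as the mean of its probe sets (0.375). Cholesterol 25-hydroxylase (Ch25h, -1.21, adjusted p = 0.0118) and Idi1 of the mevalonate pathway (-1.10, adjusted p = 0.049) fell. Both calls were lost without any 1 array (log2 change -1.32 to -1.10 and -1.16 to -1.04). A pseudocount of 10 also lost both (adjusted p = 0.0553 and 0.0743). Idi1 was lost too with no filter (adjusted p = 0.0726) or no trend (0.0681). Of the receptor genes for TNF and LPS ligands, Tnfrsf1a rose (1.07, adjusted p = 0.00134), its second probe set read -0.30, and the mean of both did not pass (0.747). The RNA sensor gene Tlr7 fell (-1.55, adjusted p = 0.0381), except without LPS replicate 2 (0.495), IL-10 plus LPS replicate 1 (0.362) or replicate 2 (0.103), and with a pseudocount of 10 (0.0654), no filter (0.0667) or quantile normalization (0.077).

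Several lists had no called member, where 4.0% of all genes were called, a share at which lists of this size hold few or none. These were the 13 MHC class II genes (median 0.07), the 13 MHC class I and immunoproteasome genes (-0.13), the 30 cell cycle genes (-0.13) and the 13 cytosolic ribosomal protein genes (0.05). The 7 lymphocyte, 13 stromal and 6 dendritic cell markers tested likewise held no called gene. Mrc1 was the 1 called gene of 18 macrophage markers, whose median was 0.02. The summed signal of the cell cycle list was 26762 and 27248 with IL-10 and 45398 and 45526 with LPS alone. A miss of the threshold does not show that the genes of these lists did not change.

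**Figure D3:**
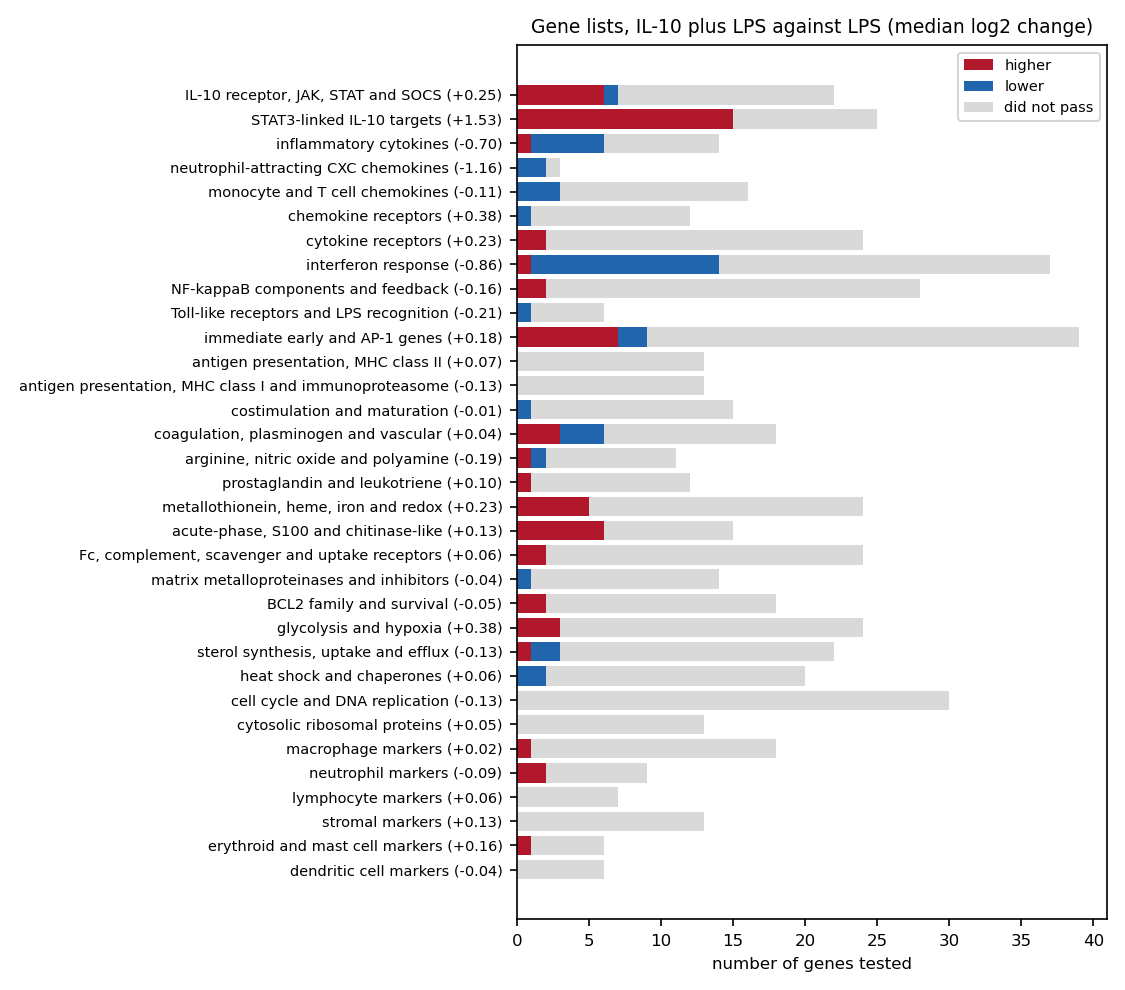
Number of genes in each of 33 lists that rose (red), fell (blue) or did not pass (grey) with IL-10 plus LPS against LPS alone in IL-10-/- macrophages at 180 min, with the median log2 change of the list in brackets. The STAT3-linked list has the longest red bar (15 of 25) and the interferon list the longest blue one (13 of 37).

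The same addition was made to wild-type cells, which can make IL-10 themselves, on 4 other arrays at 180 min. The Gapdh 3'-to-5' ratio of these was 0.704 and 1.09 with IL-10 and 0.663 and 0.722 with LPS alone. Their replicates correlated at 0.9363 with IL-10 plus LPS and 0.9421 with LPS alone, against 0.9602 and 0.956 in IL-10-/-. The part of these differences in the counts below was not tested. In wild type 11 of 6070 genes were called (0.181%), 5 higher (0.0824%) and 6 lower (0.0988%). Of the 153 genes that rose in IL-10-/- cells 3 (1.96%) also rose in wild type, which is 60% of the 5, and of the 90 that fell 5 (5.56%) also fell, which is 83.3% of the 6. In wild type the 153 had a median change of 0.36 and the 90 one of -0.57, against -0.005 over all genes. The difference between the genotypes was tested directly: 42 genes (0.692%) differed, 33 (0.544%) with the more positive change in IL-10-/- and 9 (0.148%) with the more negative one. That test uses the same 4 IL-10-/- arrays as the calls above. On the level of probe sets the count was 46 (0.559%), and 28 without LPS replicate 1 or either IL-10 plus LPS array of IL-10-/-.

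Of the 153 rising genes, 30 had a called difference toward a larger rise in IL-10-/-, and 130 also had a positive change in wild type. Bach1 and Il4ra were among the rising genes with the largest differences. Bach1 gave 9191.5 and 10319.5 in wild-type cells with IL-10 and 8066.3 and 11541.1 in wild-type cells with LPS alone (0.01 ± 0.28), so its level with IL-10 lay in the same range in both genotypes, and the IL-10-/- cells with LPS alone stood apart at 306.9 and 334.4. The response differed by 4.76 ± 0.39 (adjusted p = 5.89e-08). Il4ra gave 19238.8 and 19554.4 with IL-10 and 13673.2 and 12977.6 with LPS alone in wild type (0.54), a difference in response of 3.51 ± 0.26. Selp rose in wild type too, to 10140.9 and 11241.4 against 1552.4 and 1744.2 (2.66 ± 0.32), and its response differed by 3.89 ± 0.46. The single array of IL-6-/- cells with LPS alone gave 1553.4 for Selp, 6124.5 for Bach1 and 14225.7 for Il4ra.

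Among falling genes, Csf2 gave 63.6 and 39.7 in wild-type cells with IL-10 and 108.5 and 84.7 in wild-type cells with LPS alone, so it was dim in both (-0.53 ± 0.42), and the response differed by -5.16 ± 0.59 (adjusted p = 1.34e-05). Ccl17 was as dim, with 27.2 and 32.5 against 46.0 and 42.0 in wild type. Cav1 fell in wild type as well, to 266.6 and 270.2 against 1544.9 and 1780.4 (-2.42 ± 0.25, adjusted p = 6.68e-06), and the fall in IL-10-/- was larger by 1.97 (-1.97 ± 0.35). Irf1 fell by 1.5 in IL-10-/- and by 1.25 in wild type, and the difference of -0.25 ± 0.29 did not pass. Rsad2 (-1.5 in wild type), Mx1 (-2.11), Tnf (-0.32) and Il12b (-0.27) were not called in wild type, but their differences between the genotypes did not pass either (adjusted p = 0.342, 0.999, 0.417 and 0.14).

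**Figure D4:**
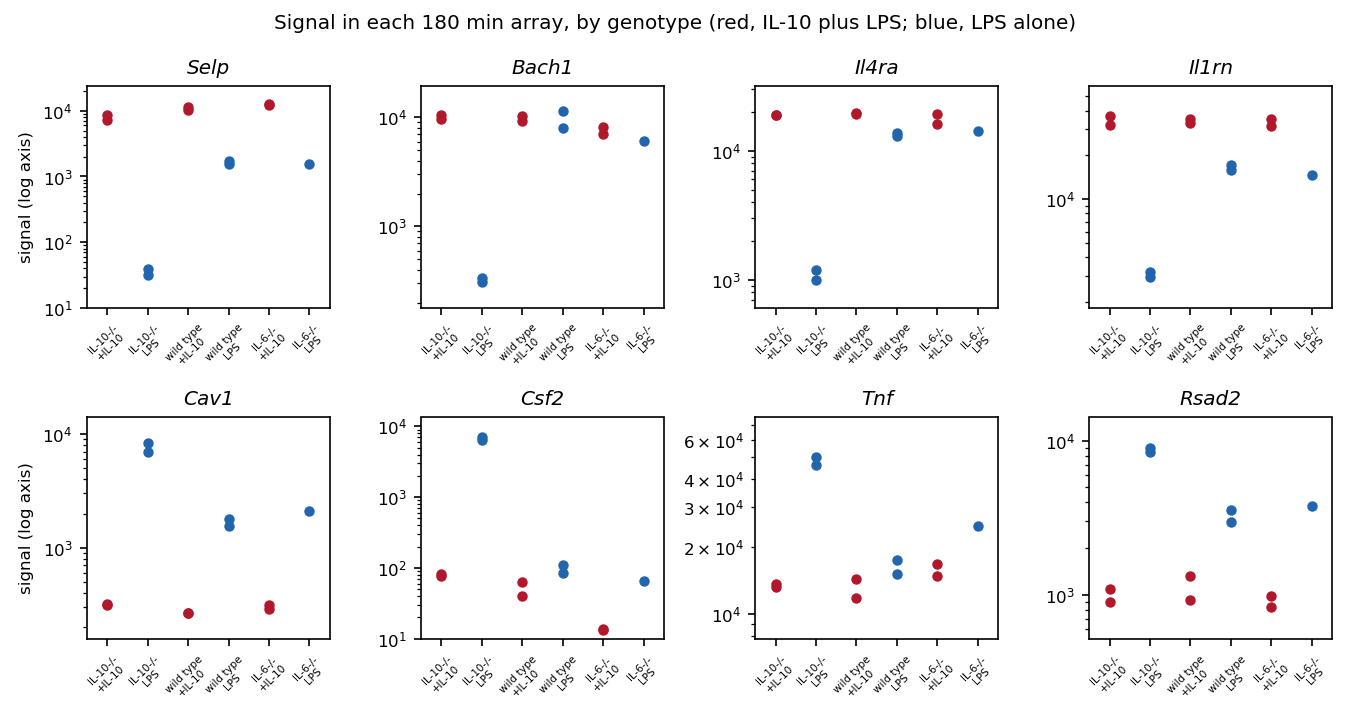
Signal (log axis) of 8 genes in each array at 180 min, by genotype, with IL-10 plus LPS in red and LPS alone in blue; IL-6-/- with LPS alone has 1 array. With LPS alone, the IL-10-/- arrays lie below those of wild type for Selp, Bach1, Il4ra and Il1rn and above them for Cav1, Csf2, Tnf and Rsad2.

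The response of IL-10-/- cells after 45 min came from 4 further arrays. At that time 38 of 6070 genes were called (0.626%), 28 higher (0.461%) and 10 lower (0.165%). Of the 153 genes that rose at 180 min, 16 (10.5%) had risen by 45 min, 57.1% of the 28, and of the 90 that fell, 5 (5.56%) were already lower, 50% of the 10. The times differed for 83 genes (1.37%), 50 (0.824%) with the more positive change at 180 min and 33 (0.544%) with the more negative one. Selp, Il1rn, Il4ra, Bach1, Mcoln2, Procr, Mt1 and Map3k8 had risen by 45 min. Selp gave 946.5 and 1160.9 with IL-10 and 15.8 and 19.3 with LPS alone (4.02 ± 0.32), and Map3k8 4151.1 and 3822.0 against 517.2 and 371.1 (3.04 ± 0.29). The Map3k8 changes at the times were close (difference -0.27, adjusted p = 0.998). Chil1, Gab1, Dusp1, Cp, Lcn2 and S100a8 were not called at 45 min, and their responses differed by between 2.69 and 4.31. At 45 min Chil1 (means of 6.3 with IL-10 and 28.6 with LPS alone) and Lcn2 (32.55 and 33.75) were near the floor. Cp (143.7 and 131.6) and S100a8 (102.3 and 147.0) were dim, Gab1 gave 688.1 and 724.6, and Dusp1 was bright in both groups (18850 and 24900). The count of differing probe sets was 94 (1.14%), and 48 to 57 without either IL-10 plus LPS array at 180 min, 51 without LPS replicate 1 at 180 min or LPS replicate 2 at 45 min, and 62 and 56 without IL-10 plus LPS replicate 1 or 2 at 45 min.

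For 4 of the genes that fell at 180 min the call at 45 min was in the other direction: Il6, Irf1, Cish and Ch25h. Il6 gave 4505.7 and 3648.2 with IL-10 at 45 min, against 175.6 and 185.3 with LPS alone (4.16 ± 0.53, adjusted p = 4.56e-05), and its responses differed by -6.77 ± 0.75 (adjusted p = 5.63e-06). Irf1 gave 13161.8 and 11761.4 against 6233.9 and 5694.3 at 45 min (1.06 ± 0.20), and Cish 894.6 and 893.1 against 254.4 and 371.2 (1.4 ± 0.24). Ch25h, with 1377.3 and 1000.5 against 346.4 and 351.2, rose by 1.62. In all 4 genes the arrays with IL-10 were thus the higher ones at 45 min and the lower ones at 180 min. Cxcl10 rose at 45 min (2.47 ± 0.39) and was not called at 180 min, and its responses differed by -3.36 ± 0.55. Cav1 gave 192.0 and 137.3 with IL-10 and 207.6 and 148.7 with LPS alone at 45 min, and so was dim at that time in both groups.

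**Figure D5:**
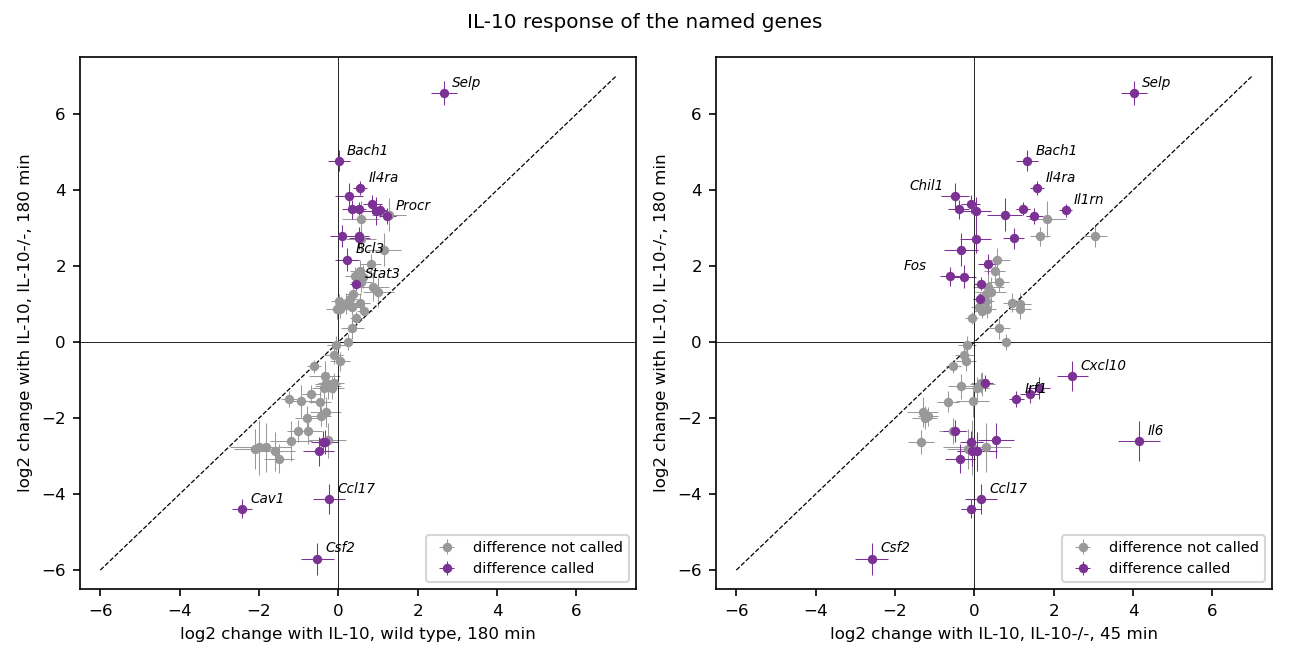
Log2 change with IL-10 (± SE) of the 71 named genes in IL-10-/- cells at 180 min (vertical axis) against that in wild type at 180 min (left) and in IL-10-/- at 45 min (right); purple marks genes whose difference was called, some of them labelled, and the dashed line is equality. Selp is highest in both panels, and Il6 lies at 4.16 on the 45 min axis and -2.61 on the 180 min axis.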

How the data were processed

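RNA from mouse macrophages was hybridised to Affymetrix MG-U74Av2 arrays. Per the submitters' processing notes the authors used MAS5, whose version is not given in the sources used here, and deposited 1 intensity for each of 12488 probe sets on a linear scale from 0.2 to 86349.8. The 2% trimmed mean lay near 500 on each array (500.35 to 500.39 on the 12 arrays compared), and no further scaling was done. Arrays without counts give no depth, and their number limits the precision.

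Array titles gave the groups. Of the arrays, 2 entered no group, 1 for a title without a genotype and 1 for a title and protocol that disagree on the time. After removal of 66 control probe sets, 8224 that reached 200 in 2 or more grouped arrays were tested, standing for 6070 genes. The platform table names 1 gene for 10855 probe sets, several for 396 and does not list 1237. Of the single symbols, 10839 matched RefSeq on GRCm38.p6. The probe set with the highest mean stands for a gene.

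Limma 3.58.1 in R 4.3.3 fitted log2 of the signal plus 50 with 1 mean per group over 32 arrays (lmFit, eBayes with an intensity trend, 16 residual and 7.575 prior degrees of freedom). P-values are 2-sided, Benjamini-Hochberg adjusted across all 8224 tested, and measure the spread between these arrays, which may be technical. The responses set against each other share no array. The fit was tested on simulated data with known changes.

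The genes, gene lists and comparisons were chosen with earlier results of these data known. Named genes are the 12 largest rises and falls that were called with arrays apart, up to 3 called members per list by p, and a panel of 17 cytokine, receptor and feedback genes. Of the 71 named genes, 58 had a RefSeq promoter entry. Alternatives were other pseudocounts, filters and normalization, no trend, fewer arrays in the fit, the mean of a gene's probe sets, a replicate block and leaving out each array.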

Additional observations from a re-analysis of the deposited data

Results flagged for a closer look

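Among the named genes, the effect of added IL-10 differed between IL-10-/- and wild-type cells at 180 min for 21 of 71, by a direct test of the difference in limma (adjusted p under 0.05). Over all genes 42 (0.692%) differed, and most named genes were chosen for their change in IL-10-/- at 180 min, which enters both kinds of difference given here. The difference of the log2 changes, IL-10-/- minus wild type, was positive for Bach1 (4.76), Selp (3.89), Chil1 (3.56), Il4ra (3.51), Dusp1 (3.14), Mcoln2 (2.99), Gab1 (2.78), Map3k8 (2.69), Cp (2.48), Il1rn (2.41), Mt1 (2.26), Ptpn1 (2.19), Procr (2.08), Bcl3 (1.94) and Stat3 (1.07). It was negative for Csf2 (-5.16), Ccl17 (-3.90), Ccl22 (-2.37), Cited2 (-2.30), St3gal5 (-2.22) and Cav1 (-1.97). In this test the adjusted p ran from 1.17e-08 to 0.0425.

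Within IL-10-/- cells, the effect differed between 180 and 45 min for 34 of the 71 named genes by the same kind of test, against 83 (1.37%) over all genes. The difference of the log2 changes, 180 min minus 45 min, was positive for Chil1 (4.31), Dusp1 (3.89), Gab1 (3.72), Bach1 (3.44), Cp (3.39), S100a8 (2.76), Lcn2 (2.69), Arg2 (2.58), Selp (2.53), Il4ra (2.47), Fos (2.35), Mcoln2 (2.28), Pla2g4a (1.99), Procr (1.80), Ptpn1 (1.74), Car2 (1.71), Stat3 (1.36), Il1rn (1.17) and Ier2 (0.98). It was negative with a call for higher expression at 45 min for Il6 (-6.77), Cxcl10 (-3.36), Ch25h (-2.83), Cish (-2.76) and Irf1 (-2.56). The other negative differences were in Ccl17 (-4.31), Cav1 (-4.30), Il12b (-3.11), Csf2 (-3.10), Cmpk2 (-2.94), Ccl22 (-2.80), Rsad2 (-2.70), St3gal5 (-2.55), Hspa1b (-1.85) and Ccl2 (-1.33). The adjusted p ran from 7.3e-08 to 0.0422. Groups of 2 arrays were too small for a search for arrays that stand apart.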

How the results depend on the processing

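The 291 probe sets called in IL-10-/- at 180 min became 466 in a fit of the 4 arrays alone and 698 with a replicate block, where 371 were higher and 327 lower (53.2% higher, against 64.3% without the block). Without 1 array the count was 176 to 187, with fewer samples in the fit. For the difference from wild type (46) it was 72 with a pseudocount of 200, 115 without the resting arrays, 97 with the block and 28 to 44 without 1 array. For the difference from 45 min (94) it was 174 without the resting arrays, 169 with the comparison's arrays alone, 226 with the block and 48 to 67 without 1 array. Other settings kept these counts within 1.5 times. To see whether same-numbered arrays pair, the log2 difference of replicate 1 minus replicate 2 was compared between the 2 treatments. These differences correlated at 0.0976 in IL-10-/- at 180 min, 0.299 in wild type and 0.144 in IL-10-/- at 45 min. The numbers were thus not taken as pairs throughout. Of the named genes, 26 of 34 that rose and 17 of 29 that fell kept their call in every setting tried. Ptgs2, at -0.01, ranged between -0.19 and 0.18 without 1 array, with 0.17 without LPS replicate 1 and 0.18 without IL-10 plus LPS replicate 2. Apart from the smaller number of samples in the fits without 1 array, the cause was not tested.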

Other observations

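Outside the lists and the rule for named genes, and so picked after their values were seen, several signalling genes were called in IL-10-/- cells at 180 min. The sphingosine kinase gene Sphk1 had a log2 change of 3.14, the PI3-kinase subunit genes Pik3cd 2.75 and Pik3r1 1.37, and the guanine nucleotide exchange factor genes Vav1 2.40 and Tiam1 1.87. Of these, Sphk1 (3.10) and Vav1 (2.03) differed from the response of wild type, as the difference of the log2 changes. The stress gene Ddit4, an inhibitor of mTORC1, had 2.46, and the differentiation inhibitor genes Id1 and Id2 had 1.25 and 1.96. Lower genes of this kind were the B-cell-type adaptor gene Blnk (-2.45), the phosphatase gene Ptpn22 (-2.01), the tissue plasminogen activator gene Plat (-1.82) and the p38 kinase gene Mapk14 (-1.25).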
